A study of Mus musculus with 6 samples.

Results

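Kit, Ano1, Etv1, Pdgfra, P2ry1 and Kcnn3 are the genes by which the interstitial cells of the gut muscle layer are usually recognised. They were taken by name from the 24517 genes listed for mouse colon, for their known roles, although earlier results of these data were known. All 6 of the 6 genes had enough reads to be among the 16347 genes tested. Etv1 and Kcnn3 were 1.84-fold and 1.80-fold higher in colons of mice that lack NSD2 in the intestinal epithelium, with no overlap between the groups. Of all genes tested, 11.4% separated in that direction. The edgeR adjusted p of Etv1 and Kcnn3 was 0.326 and 0.312. Genotype could not be told apart from sex in these libraries. Kit, Pdgfra and P2ry1 lay between 0.940-fold and 1.13-fold of the control level. Ano1 differed more between libraries of 1 genotype than between the genotypes.

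Interstitial cells of Cajal are the pacemaker cells of the gut. Their survival depends on KIT, a receptor tyrosine kinase, and their electrical slow waves depend on ANO1, a chloride channel opened by calcium. ETV1 is an ETS family transcription factor that acts with KIT signalling in these cells. A separate type of interstitial cell carries PDGFRA, the alpha receptor for platelet-derived growth factor. It answers purines released from enteric nerves through the receptor P2RY1, and KCNN3, the small-conductance calcium-activated potassium channel SK3, then relaxes the neighbouring muscle. None of the 6 genes is private to these cells. KIT also marks mast cells, PDGFRA marks fibroblasts beneath the epithelium, ANO1 occurs in secretory epithelia, and KCNN3 and P2RY1 occur in endothelium and neurons.

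The groups were NSD2fl/fl mice, which carry the floxed gene, and NSD2∆IE mice, in which Villin-Cre had removed it, with 3 colon libraries each. Villin drives Cre in the intestinal epithelium, so the interstitial cells and the muscle keep the floxed gene intact by design. Both groups shared a C57BL/6J background and had eaten HFCD, a diet rich in fat and cholesterol, for 16 weeks according to the labels, whereas the study's methods give a longer time. The methods name male littermates. Since the labels do not say that each library came from a separate mouse, p-values measure the spread between these libraries.

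Totals ranged from 38041832 to 38604680 counts per library. Nsd2 lay at 47.8 to 68.9 CPM (counts relative to library size after TMM scaling) in NSD2fl/fl and at 23.1 to 27.4 CPM in NSD2∆IE, without overlap. Xist had 0 to 4 counts in the NSD2fl/fl libraries and 21217 to 24234 counts in the NSD2∆IE libraries. The summed Y-linked genes had 5058 to 6110 counts in NSD2fl/fl and 0 to 1 counts in NSD2∆IE. The NSD2fl/fl libraries thus had a male pattern and the NSD2∆IE libraries a female pattern, and genotype and sex cannot be told apart in any result given here. The first principal component of all genes, with 51.0% of the variance, did not follow genotype. It set NSD2fl/fl replicates 1 and 3 and NSD2∆IE replicate 1, with 310 to 365 CPM of Hoxb13, a homeobox gene of the hindmost gut, against NSD2fl/fl replicate 2 and NSD2∆IE replicates 2 and 3, with 0.706 to 26.2 CPM.

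The promoters of Etv1 and Kcnn3, the pair whose levels did not overlap between the genotypes, were set beside that of Ano1, whose levels did, to show how unlike their letters are. Each run spans 250 bases before and 50 bases after a RefSeq transcription start on GRCm38.p6, 5′ to 3′ on the strand of the gene. Capitals mark the GC box GGGCGG on either strand. The windows are chr12:38779832-38780131 on the plus strand for Etv1, chr3:89519914-89520213 on the plus strand for Kcnn3 and chr7:144738524-144738823 on the minus strand for Ano1.
Etv1: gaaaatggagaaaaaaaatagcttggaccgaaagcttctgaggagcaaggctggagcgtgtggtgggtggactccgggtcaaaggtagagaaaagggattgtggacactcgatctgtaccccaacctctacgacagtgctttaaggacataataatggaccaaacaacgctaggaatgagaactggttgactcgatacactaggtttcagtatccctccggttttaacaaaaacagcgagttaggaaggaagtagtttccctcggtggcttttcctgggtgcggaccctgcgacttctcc
Kcnn3: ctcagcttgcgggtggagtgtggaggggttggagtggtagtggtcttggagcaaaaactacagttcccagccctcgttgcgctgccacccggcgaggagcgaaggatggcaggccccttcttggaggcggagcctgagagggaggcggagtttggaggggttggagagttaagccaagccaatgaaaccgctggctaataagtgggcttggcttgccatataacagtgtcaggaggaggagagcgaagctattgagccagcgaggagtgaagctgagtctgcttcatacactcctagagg
Ano1: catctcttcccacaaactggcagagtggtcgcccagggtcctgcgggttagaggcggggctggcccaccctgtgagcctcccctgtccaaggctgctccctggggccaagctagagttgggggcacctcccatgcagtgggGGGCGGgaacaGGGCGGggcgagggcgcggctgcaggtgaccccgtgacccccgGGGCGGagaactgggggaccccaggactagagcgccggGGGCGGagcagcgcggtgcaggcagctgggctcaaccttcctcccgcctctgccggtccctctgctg
The window of Ano1 held 4 GC boxes and was 71.7% G or C. The windows of Etv1 and Kcnn3 held 0 GC boxes, at 48.7% and 57.7% G or C, around the median of 52.7% over 32851 promoters. A GC box was found in 35.7% of those promoters. RefSeq gave 8 promoter windows for the 6 genes. P2ry1 had 2 GC boxes, each window of Kit had 1 and Pdgfra had 0. The window of Pdgfra, whose levels also overlapped between the genotypes, was 51.0% G or C. Neither GC boxes nor the share of G or C thus set apart the genes whose levels separated. The ETS core CGGAAG, searched on both strands and present in 16.9% of all promoters, had 0 matches in the 8 windows, and so had the CArG box of muscle genes, present in 1.63%. The TATA box TATAAA, present in 13.6%, had 1 match, in the window of the other Etv1 start at chr12:38783461-38783760. The palindromic E box CAGCTG, present in 16.3%, had 1 match, in Ano1. A match is a description of the letters and not evidence of binding.

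By GENCODE on GRCm38, which is the mm10 build of the deposited counts, all 6 genes are protein coding. Kit (chr5:75574916-75656722, plus strand, 21 merged exons) lies 376700 bases downstream of Pdgfra (chr5:75152292-75198215, plus strand, 27 merged exons). Ano1 is at chr7:144588549-144751974 on the minus strand with 29 merged exons, and Etv1 is at chr12:38779380-38870484 on the plus strand with 17. P2ry1 (chr3:61002795-61008982, plus strand, 2 merged exons) and Kcnn3 (chr3:89520164-89675132, plus strand, 8 merged exons) share chromosome 3. Ano1, Pdgfra and P2ry1 are overlapped by annotated antisense transcripts, and Pdgfra also by a miRNA on its own strand. Whether counting was strand-specific was not given in the sources used here, so reads of those partners cannot be told apart from theirs. Kit, Etv1 and Kcnn3 overlap no other annotated gene.

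Per gene length, the 6 genes fell into 3 tiers. In NSD2fl/fl, Ano1 had 31.9 ± 20.4 FPKM and Kit 18.5 ± 4.92 FPKM (mean ± SD, n = 3), where FPKM are counts divided by gene length and library size. Pdgfra followed at 7.01 ± 1.32 FPKM and P2ry1 at 6.93 ± 0.696 FPKM. Kcnn3 and Etv1 were the lowest, at 0.950 ± 0.350 FPKM and 0.593 ± 0.203 FPKM. The order was almost the same in NSD2∆IE, where Ano1 had 26.2 ± 16.0 FPKM, Kit 22.2 ± 2.46 FPKM, P2ry1 8.57 ± 1.73 FPKM and Pdgfra 7.23 ± 0.360 FPKM. Kcnn3 reached 1.85 ± 0.183 FPKM and Etv1 1.18 ± 0.267 FPKM there. Within a tier, the ranges of neighbours overlapped in both genotypes, except that all Kcnn3 values lay above all Etv1 values in NSD2∆IE. The tiers did not overlap in either genotype, although Ano1, at 9.75 FPKM in NSD2fl/fl replicate 2, came close to the middle tier.

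Among the genes of the interstitial cells of Cajal, Kit had 116, 111 and 72.2 CPM in NSD2fl/fl replicates 1 to 3 and 97.9, 116 and 116 CPM in NSD2∆IE replicates 1 to 3. NSD2fl/fl replicate 3 stood well below the others, and the groups overlapped. The means were 99.6 ± 23.8 and 110.03 ± 10.5 CPM (SD, n = 3 each), with a log2 fold change of 0.14 (95% confidence interval -0.32 to 0.61) and an edgeR adjusted p of 0.807. The interval includes both lower and higher levels of Kit.

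Ano1 had 271, 58.0 and 211 CPM in the NSD2fl/fl libraries and 237, 75.4 and 102 CPM in the NSD2∆IE libraries. Each genotype held high and low libraries, and the groups overlapped along their whole range. The means were 180.0 ± 109.8 CPM in NSD2fl/fl and 138 ± 86.5 CPM in NSD2∆IE. The log2 fold change of -0.38 had a standard error of 0.63 and a 95% confidence interval of -1.87 to 1.11 (edgeR adjusted p 0.842), the widest of the 6.

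Etv1 had 10.7, 6.33 and 7.24 CPM in the NSD2fl/fl libraries and 11.7, 18.6 and 14.6 CPM in the NSD2∆IE libraries. These are 224 to 414 and 463 to 736 counts, well above the floor of 3 counts. Every NSD2∆IE library lay above every NSD2fl/fl library, although replicates 1 of both groups were close. The means were 8.10 ± 2.33 and 14.9 ± 3.46 CPM. The log2 fold change was 0.88 (SE 0.27, 95% confidence interval 0.25 to 1.51), and edgeR's quasi-likelihood test gave p 0.0133 before and 0.326 after adjustment over all genes. In whole colon, more cells of a type and more RNA per cell cannot be told apart.

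Among the genes of the PDGFRA cells, Pdgfra itself had 60.8, 84.3 and 57.9 CPM in the NSD2fl/fl libraries and 60.9, 66.8 and 63.1 CPM in the NSD2∆IE libraries. The highest value belonged to NSD2fl/fl replicate 2, and the other 5 libraries lay close together. The means were 67.7 ± 14.5 and 63.6 ± 2.96 CPM, a log2 fold change of -0.089 (95% confidence interval -0.47 to 0.29, edgeR adjusted p 0.857).

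P2ry1, the purine receptor, had 29.3, 29.3 and 25.9 CPM in the NSD2fl/fl libraries and 24.9, 35.9 and 34.8 CPM in the NSD2∆IE libraries. NSD2∆IE replicate 1 was the lowest of the 6, and the other NSD2∆IE libraries were the highest. The means were 28.2 ± 1.95 and 31.9 ± 6.07 CPM, a log2 fold change of 0.18 (95% confidence interval -0.21 to 0.57, edgeR adjusted p 0.721). Without NSD2∆IE replicate 1 the log2 fold change was 0.34, with an unadjusted p of 0.0474.

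Kcnn3, the potassium channel, had 10.1, 5.45 and 6.90 CPM in the NSD2fl/fl libraries and 13.3, 12.7 and 14.5 CPM in the NSD2∆IE libraries, from 193 to 388 and from 502 to 602 counts. All NSD2∆IE libraries lay above all NSD2fl/fl libraries, and they varied less. The means were 7.48 ± 2.36 and 13.5 ± 0.940 CPM. The log2 fold change was 0.85 (SE 0.24, 95% confidence interval 0.27 to 1.43), and the edgeR test gave p 0.0104 before and 0.312 after adjustment.

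**Figure D1:**
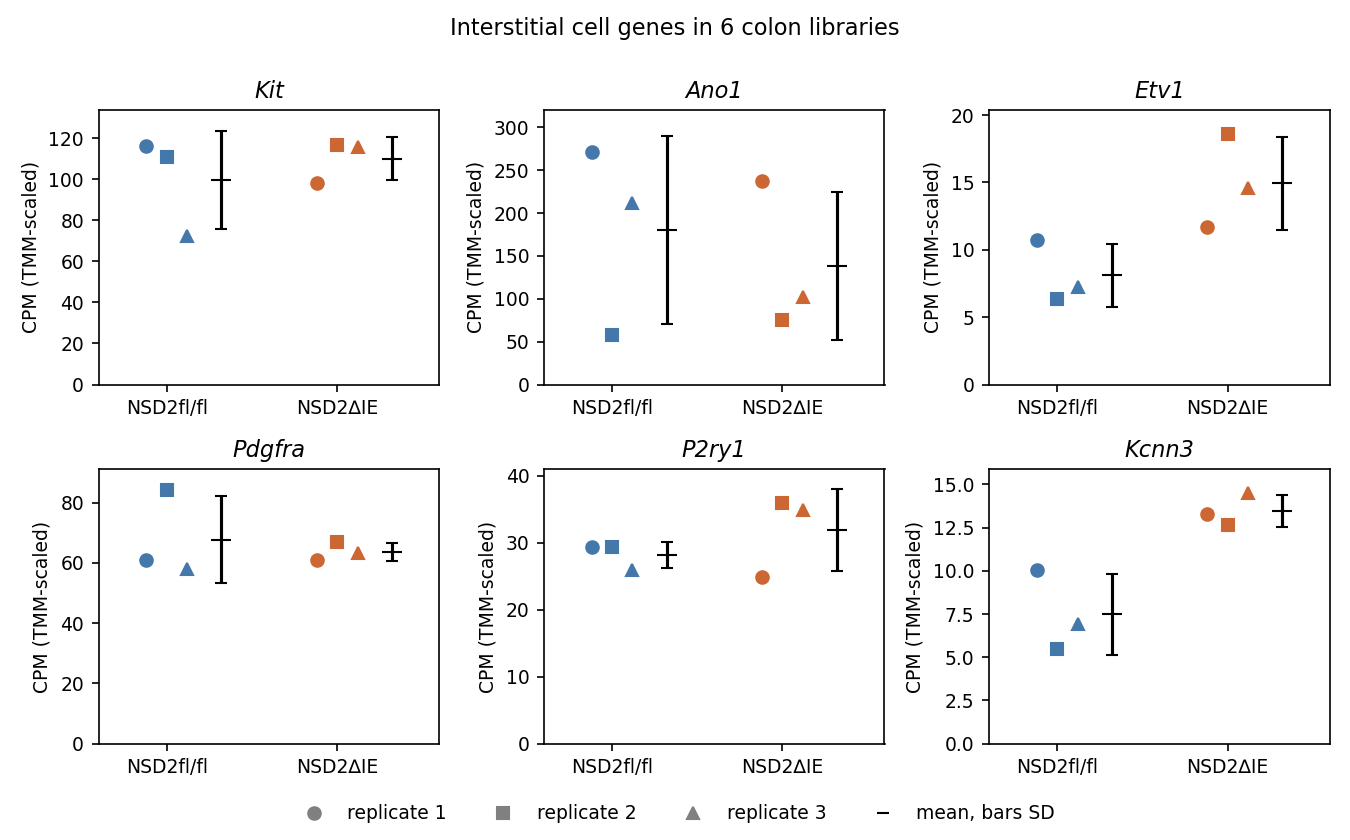
Level of each gene in CPM (y axis, from 0) in the 3 NSD2fl/fl (blue) and 3 NSD2∆IE (orange) libraries, with marker shapes for the replicate number and bars for the mean ± SD. The groups separate for Etv1 and Kcnn3 and overlap for Kit, Ano1, Pdgfra and P2ry1.

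None of the 6 genes had an edgeR adjusted p under 0.05, a threshold passed by 0.0306% of the genes tested. At an unadjusted p under 0.05, 2 of the 6 passed and 1816 of all genes tested did. By a second rule, which is the study's own threshold of an unadjusted p under 0.05 with a log2 fold change over 0.32 in size, 2 of 6 were higher in NSD2∆IE and 0 were lower. The share of all genes tested was 8.05% for higher and 2.21% for lower. Those shares are 1316 and 361 genes, against 1577 and 200 with upper-quartile factors and 1717 and 142 with library totals alone. In 2 of the 6 genes all NSD2∆IE libraries lay above all NSD2fl/fl libraries, against 11.4% of all genes, and in 0 they lay below, against 7.28%. The median log2 fold change was 0.16 over the 6 genes and -0.041 over all genes tested.

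The levels of Etv1 and Kcnn3 ran together over the 6 libraries, with a Pearson r of 0.91 on the log2 CPM scale. Kit and P2ry1 followed at 0.69, while Ano1 and Pdgfra ran opposite at -0.82. The 6 points share depth, genotype and the split of the first principal component, so these coefficients are descriptions only.

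Ano1 and Pdgfra were ordered by the first principal component rather than by genotype. In the 3 libraries with much Hoxb13, Ano1 had 211 to 271 CPM, and in the 3 with little it had 58.0 to 102 CPM. Pdgfra had 57.9 to 60.9 CPM in the former and 63.1 to 84.3 CPM in the latter. For both genes the 2 sides did not overlap, and each side held both genotypes. Kit, Etv1, P2ry1 and Kcnn3 overlapped between the sides. The overlap of P2ry1 was narrow, with at most 29.33 CPM on the former side and at least 29.29 CPM on the latter. The gap of Pdgfra was narrow as well, and only Ano1 was far apart.

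**Figure D2:**
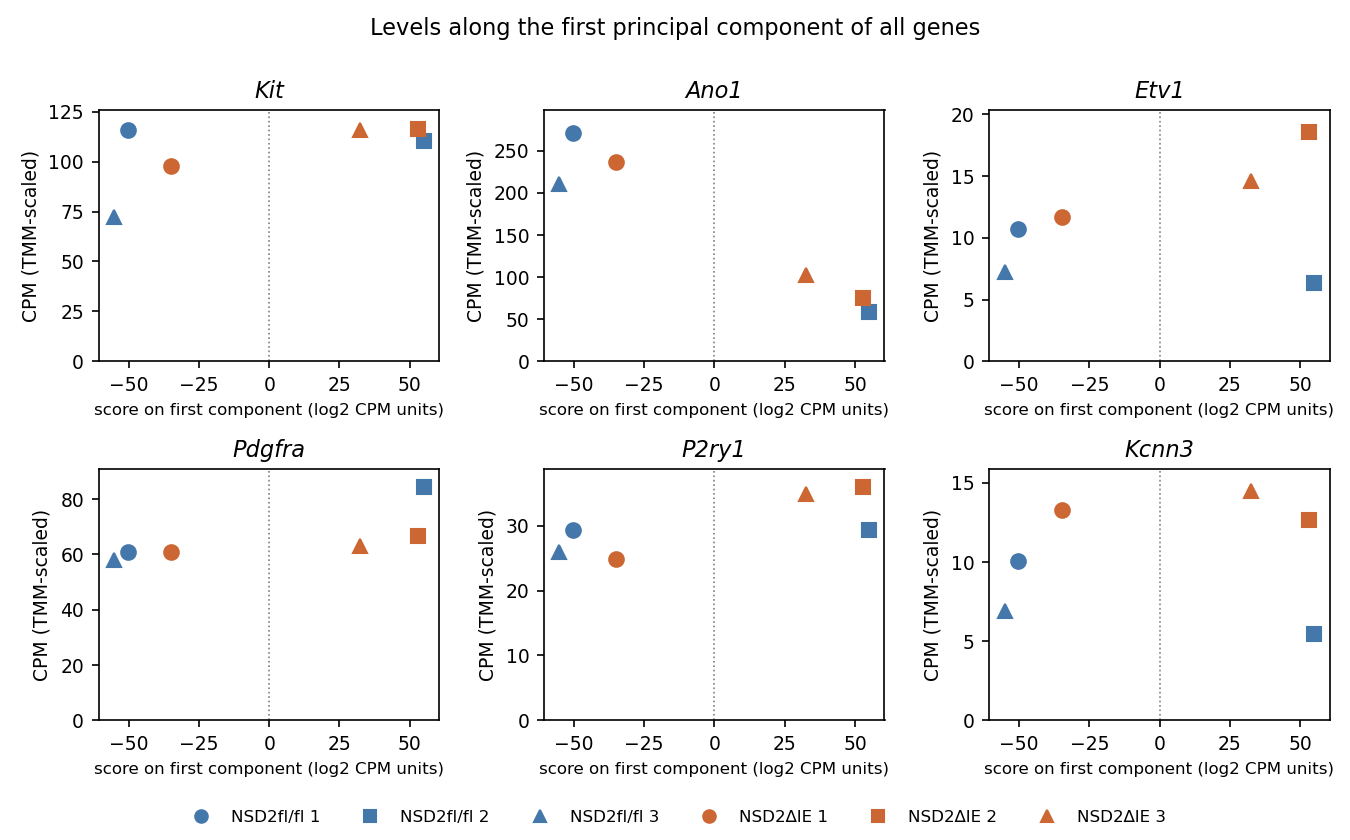
Level of each gene in CPM (y axis, from 0) against the score of each library on the first principal component of all genes (x axis, log2 CPM units), with colour for genotype and shape for replicate. Ano1 is at 211 CPM or more on the left of the dotted line and at 102 CPM or less on the right in both genotypes.

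Within the sides, the difference of mean log2 CPM between NSD2∆IE and NSD2fl/fl could be read from 2 libraries against 1 in each. Kcnn3 was higher in NSD2∆IE by 0.67 on the side with much Hoxb13 and by 1.31 on the other. Etv1 was higher by 0.40 and 1.37. Kit differed by 0.098 and 0.070. Ano1 was almost level on the first side, at -0.014, and higher by 0.60 on the second. Pdgfra differed by 0.039 and -0.38, and P2ry1 by -0.15 and 0.27, so neither kept its direction. These differences have no test.

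The genes most like each of the 6 across libraries were sought among 13275 genes with an average log2 CPM of at least 1, by Pearson r of log2 CPM over the 6 libraries. With so many candidates and 6 libraries, some gene comes near an r of 1 for any pattern. A neighbour repeats the levels of its gene by selection, so these values are descriptions only. Ano1 was nearest to Best2, a bestrophin anion channel of the colon epithelium, at an r of 0.9996, and to Repin1 at 0.9989. Best2 had 106, 3.98 and 59.6 CPM in the NSD2fl/fl libraries and 80.1, 7.47 and 14.2 CPM in the NSD2∆IE libraries, the same order of libraries as Ano1. Kcnn3 was nearest to Angptl2, a secreted angiopoietin-like protein, at 0.9997, and to Fgfr1, a receptor for fibroblast growth factors, at 0.9994. Angptl2 had 24.1 to 54.4 CPM in NSD2fl/fl and 71.7 to 84.7 CPM in NSD2∆IE.

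Etv1 was nearest to Ehbp1 at 0.998 and to Chl1, a neural cell adhesion molecule, at 0.997. Chl1 had 5.28 to 8.72 CPM in NSD2fl/fl and 10.4 to 16.5 CPM in NSD2∆IE. Kit was nearest to Tmem184b and Arid5b, both at 0.997, and Pdgfra to Mtmr11 and Specc1l, both at 0.997. P2ry1 was nearest to Rsph3b at 0.996 and Tnfsf15, a cytokine of the TNF family, at 0.970. The groups overlapped in all 6 of these neighbours of Kit, Pdgfra and P2ry1.

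The partners of the 6 genes were examined as 3 lists, of ligands, of pacemaker and nitric oxide signalling, and of purine signalling, with 29 genes tested in all. By the second rule 7 of the 29 were higher in NSD2∆IE and 0 were lower, with a median log2 fold change of 0.25. Over all genes tested, 8.05% were higher and 2.21% were lower. None had an adjusted p under 0.05. The count of higher genes ranged from 4, without NSD2∆IE replicate 3, to 10, with library totals alone and in 3 other settings. Leaving out that library also took the higher calls over all genes from 1316 to 675.

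The list of KIT and PDGF ligands and the beta receptor had 6 genes, of which 0 passed the second rule in either direction, with a median log2 fold change of -0.11. Kitl, which encodes the ligand of KIT, had 98.7, 102 and 101 CPM in the NSD2fl/fl libraries and 78.1, 102 and 90.0 CPM in the NSD2∆IE libraries. Its groups overlapped, with a log2 fold change of -0.16 (SE 0.12, edgeR adjusted p 0.66). Pdgfa, a ligand of PDGFRA, lay between 30.4 and 37.6 CPM in NSD2fl/fl and between 26.3 and 34.4 CPM in NSD2∆IE, with a log2 fold change of -0.17 (SE 0.15). Pdgfc, another of its ligands, had 12.99 CPM in NSD2fl/fl replicate 2 and at most 7.62 CPM in any other library, and its log2 fold change of -0.10 had a standard error of 0.60.

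Of 14 genes of pacemaker and nitric oxide signalling, 6 were higher by the second rule and 0 were lower. All 14 log2 fold changes were above 0, with a median of 0.73, as were those of 7145 of the 16347 genes tested. Gucy1a1 and Gucy1b1, the subunits of soluble guanylyl cyclase, had log2 fold changes of 0.70 (SE 0.19) and 0.76 (SE 0.17), with an unadjusted p of 0.0094 and 0.0035. Gucy1b1 had 13.9 to 17.4 CPM in NSD2fl/fl and 21.1 to 29.6 CPM in NSD2∆IE.

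Prkg1, the kinase that cyclic GMP activates, was higher by 1.08 (SE 0.34) on the log2 scale. Mrvi1, the older symbol for the kinase's substrate IRAG, was higher by 0.92 (SE 0.30). Gjc1, the gap junction protein connexin 45, was higher by 0.76 (SE 0.23), and Tacr1, the receptor of substance P on interstitial cells of Cajal, by 1.35 (SE 0.48). None of these 6 genes overlapped between the groups, and their adjusted p ranged from 0.302 to 0.386 in the edgeR test. They had already passed the second rule, so the lack of overlap adds no support. Of all genes tested, 11.4% separated in that direction. Guanylyl cyclase, the kinase and its substrate are also known from smooth muscle.

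Of 9 genes of purine signalling, 1 was higher by the second rule and 0 were lower, with a median log2 fold change of 0.093. The gene was Adcyap1r1, the receptor of the neuropeptide PACAP. It had 9.45, 4.49 and 5.95 CPM in the NSD2fl/fl libraries and 13.5, 13.4 and 15.3 CPM in the NSD2∆IE libraries, without overlap, and a log2 fold change of 1.08 (SE 0.28, edgeR adjusted p 0.303). Its levels put the 6 libraries in the same order as those of Kcnn3. Nt5e, which makes adenosine from AMP and is named here after its values were seen, had 131 to 150.3 CPM in the 3 libraries with much Hoxb13 and 16.5 to 29.0 CPM in the other 3, a split shared with Ano1.

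**Figure D3:**
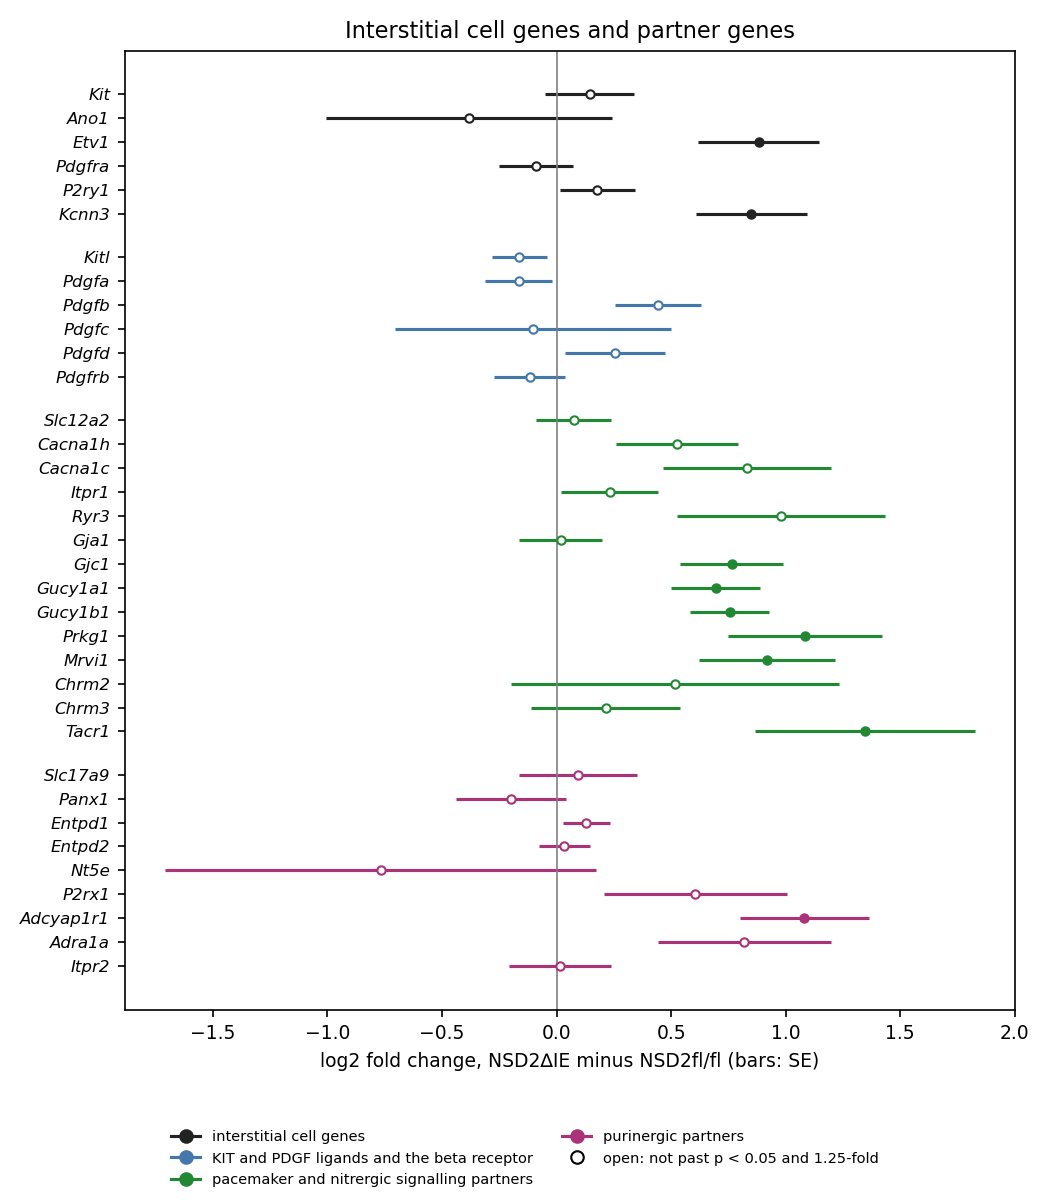
Log2 fold change of NSD2∆IE over NSD2fl/fl (x axis) with its standard error for the 6 interstitial genes and 29 partner genes, in colours by list, with filled points past the second rule. Filled points are Etv1, Kcnn3, 6 pacemaker and nitric oxide genes and Adcyap1r1, and no ligand gene is filled.

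The relatives of the 6 genes gave 23 tested genes in 5 families, of which 2 were higher by the second rule and 0 were lower. That count is near the 8.05% of all genes that were higher, and it is no result about the families. The first was Kcnn2, which encodes the SK2 channel. It had 0.338, 0.141 and 0.505 CPM in the NSD2fl/fl libraries and 0.908, 1.36 and 1.35 CPM in the NSD2∆IE libraries, with no overlap and a log2 fold change of 1.87 (SE 0.50, unadjusted p 0.0079, edgeR adjusted p 0.312). These levels rest on few reads, 5 to 18 counts in NSD2fl/fl and 36 to 56 counts in NSD2∆IE.

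The second was Etv5, a close relative of ETV1 among the PEA3 factors. It had 25.4, 41.2 and 21.1 CPM in the NSD2fl/fl libraries and 33.6, 60.4 and 58.3 CPM in the NSD2∆IE libraries, with overlap and a log2 fold change of 0.80 (SE 0.32, edgeR adjusted p 0.427). Etv4, the other member of that group, did not pass, with a log2 fold change of -0.25 (SE 0.71). None of the 8 anoctamins, 7 P2Y receptors and 3 type III receptor tyrosine kinases tested beside Ano1, P2ry1, Kit and Pdgfra passed the rule in either direction.

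Markers of smooth muscle and enteric neurons had log2 fold changes in the same direction as Etv1 and Kcnn3. None of them had an edgeR adjusted p under 0.05, and 8.05% of all genes tested were higher by the second rule. Of 12 smooth muscle markers, 10 were higher in NSD2∆IE by the second rule, and their summed level was 4450, 1693 and 4447 CPM in NSD2fl/fl and 5553, 7582 and 11923 CPM in NSD2∆IE. Myh11, the smooth muscle myosin heavy chain, had 300.5 to 808 CPM in the former and 1006 to 2067 CPM in the latter. Of 10 enteric neuron markers 7 were higher, with a summed level of 119 to 160.0 CPM against 199.6 to 254 CPM. The neuron marker Elavl4 lay at 1.497 to 3.63 CPM against 4.36 to 6.36 CPM. The part of these cells in the levels of Etv1 and Kcnn3 was not tested.

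The lists of other cell types gave fewer calls, where 8.05% of all genes tested were higher and 2.21% were lower. The mast cell markers, relevant to Kit, summed to 3.14 to 10.9 CPM in NSD2fl/fl and 2.43 to 7.21 CPM in NSD2∆IE, and 0 of 5 tested passed the second rule. The mast cell protease Cpa3 had 0.145 to 0.363 CPM in any library, against at least 72.2 CPM of Kit. Which cells the Kit reads came from was not tested. The markers of PDGFRA-positive fibroblasts beneath the epithelium, relevant to Pdgfra, summed to 91.3 to 126 CPM and 109.7 to 129 CPM, with 0 of 6 past the rule. Foxl1, which defines those cells, had 2.61 to 4.01 CPM and 3.40 to 3.71 CPM. General fibroblast markers had 3 of 6 higher, with a median log2 fold change of 0.23, and 0 of 5 endothelial markers passed, with a median of 0.15. The adipocyte markers had 1 of 4 higher, with a median of 1.77. Their summed level was 14.8 to 30.0 CPM in NSD2fl/fl and 31.0 to 65.2 CPM in NSD2∆IE. Of the 3 markers of deep crypt secretory cells 0 passed, with a median of -0.87. Of the 7 epithelial markers 0 passed, although all 7 log2 fold changes were below 0 and the median was -0.32. Over all genes, 9202 of the 16347 tested were below 0, with a median of -0.041. The epithelial markers summed to 9293 to 16547 CPM in NSD2fl/fl and 9339 to 10615 CPM in NSD2∆IE. Epcam had 1430 to 1873 CPM against 1232 to 1388 CPM, without overlap, where 7.28% of all genes separated in that direction.

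Because the interstitial cells lie in the muscle layer, each gene was also expressed per summed level of the 12 smooth muscle markers in the same library. Read this way, no gene was higher in NSD2∆IE. The denominator itself was 5553 to 11923 CPM in NSD2∆IE, against 1693 to 4450 CPM in NSD2fl/fl. A gene with equal CPM in both groups thus has a lower ratio in NSD2∆IE, so these ratios cannot show that a gene itself fell. The difference of mean log2 ratio was -0.41 for both Etv1 and Kcnn3 (exact permutation p 0.5 for each, two-sided), with overlap between the groups. It was -1.37 for Pdgfra and -1.14 for P2ry1, where all NSD2∆IE libraries lay below all NSD2fl/fl libraries. Both had an exact permutation p of 0.1, the smallest that 3 against 3 allows. The CPM of both genes, taken alone, overlapped between the groups. Kit had -1.13 and Ano1 -1.59, each with overlap and an exact permutation p of 0.2.

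Pdgfra had 13.7, 49.8 and 13.02 CPM per 1000 CPM of smooth muscle markers in NSD2fl/fl and 11.0, 8.81 and 5.30 in NSD2∆IE. NSD2fl/fl replicate 2, with the least smooth muscle signal, had the highest ratio for every gene but Ano1. Without that library the differences were -0.74 for Pdgfra, -0.65 for P2ry1, -0.58 for Kit, -0.10 for Etv1, -0.15 for Kcnn3 and -1.81 for Ano1. With Myh11 alone as the denominator, which was itself higher in NSD2∆IE, Kit differed by -1.23, without overlap (exact permutation p 0.1).

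**Figure D4:**
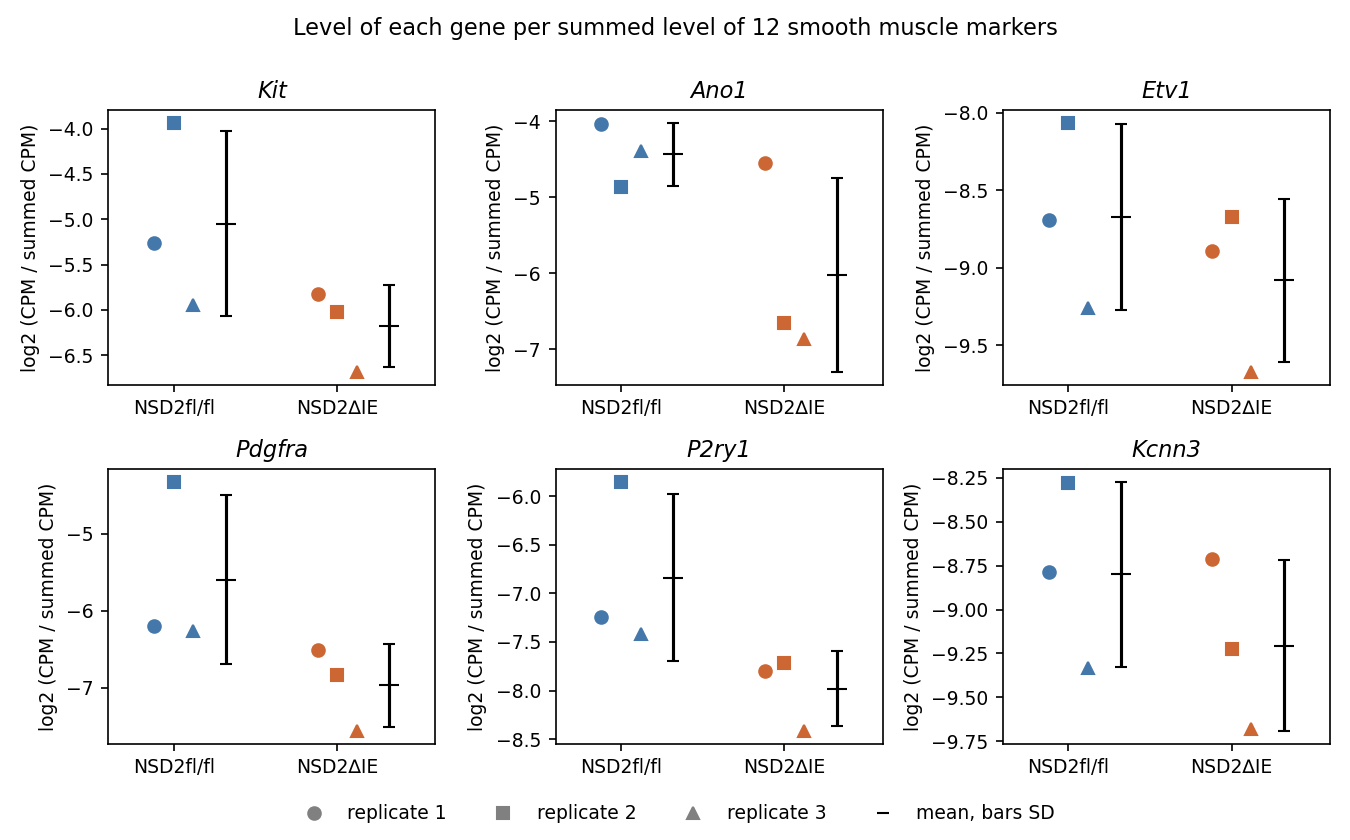
Log2 ratio of each gene to the summed CPM of 12 smooth muscle markers (y axis, scaled for each gene) in the 3 NSD2fl/fl (blue) and 3 NSD2∆IE (orange) libraries, with bars for the mean ± SD. The NSD2∆IE libraries lie below for Pdgfra and P2ry1, and overlap with NSD2fl/fl for the other 4 genes. The summed CPM of the markers was itself higher in every NSD2∆IE library.

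The 6 genes were also set against each other, in 6 ratios chosen after their values were seen and therefore given without a test. Per 1000 CPM of Kit, Etv1 had 92.7, 57.2 and 100.3 CPM in NSD2fl/fl and 119, 159 and 126 CPM in NSD2∆IE. The groups did not overlap, and the mean log2 ratio was 0.72 higher in NSD2∆IE. Per 1000 CPM of P2ry1, Kcnn3 had 343, 186 and 266 CPM in NSD2fl/fl and 532, 352 and 416 CPM in NSD2∆IE. The groups again did not overlap, with a mean log2 difference of 0.73. The difference was 0.96 for Kcnn3 over Pdgfra, also without overlap. It was 0.23 for P2ry1 over Pdgfra, -0.46 for Ano1 over Kit and 0.00011 for Etv1 over Kcnn3, all with overlap.

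Across 16 alternative settings, Kcnn3 stayed past the second rule in 16 and Etv1 in 15. The log2 fold change of Kcnn3 ranged from 0.56 to 1.12 and its adjusted p from 0.0506 to 0.990. That of Etv1 ranged from 0.45 to 1.14 and its adjusted p from 0.0703 to 0.990. The lowest log2 fold changes of both came from the log2(FPKM + 1) scale, which compresses low levels, and the lowest adjusted p of both from DESeq2. Without NSD2fl/fl replicate 3, Etv1 had a log2 fold change of 0.80 and an unadjusted p of 0.0505, and 1 of the 6 genes was higher by the second rule instead of 2. The sign of Kit, Ano1 and Pdgfra turned in 1, 2 and 4 of the 16.

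**Figure D5:**
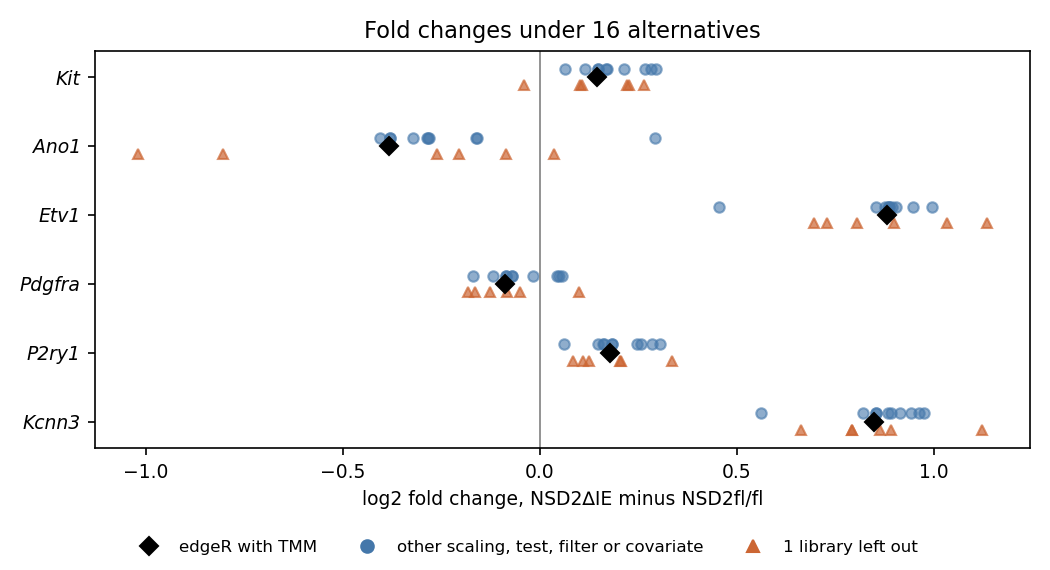
Log2 fold change of NSD2∆IE over NSD2fl/fl (x axis) of each gene by edgeR with TMM factors (diamond), by 10 other scalings, tests, filters or covariates (circles) and with 1 library left out (triangles). All points of Etv1 and Kcnn3 lie between 0.45 and 1.14, while those of Kit, Ano1 and Pdgfra fall on both sides of 0.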

How the data were processed

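RNA was extracted from colon with TRIzol and sequenced. The authors deposited whole-number counts per gene symbol and FPKM values per gene symbol for each of the 6 libraries. The submitters' processing notes name fastp, HISAT2, HTSeq, R 3.2.0 and the build mm10. The gene annotation, and whether counting was strand-specific, were not given in the sources used here. For 17863 genes the length implied by the deposited counts and FPKM was whole and the same in all libraries to within 0.0638 bases.

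Groups and replicate numbers came from the labels. Every pair of libraries differed beyond sampling noise (chi-square per degree of freedom at least 35.5), so all 6 were kept. Counts were tested with edgeR 4.0.16 in R 4.3.3 after filterByExpr, with TMM factors and the two-sided quasi-likelihood test without covariates, and p-values were adjusted by Benjamini-Hochberg over 16347 genes. The standard error is the size of the log2 fold change over the square root of F, and confidence intervals are at 95%. Log2 CPM used a prior count of 2. The second rule was an unadjusted p under 0.05 with a log2 fold change over 0.32 in size (1.25-fold), the study's threshold. Ratios were compared by exact permutation of the libraries. The script was tested on simulated counts of 16096 genes. Of 98 genes with a true 2-fold change, 14 had an edgeR adjusted p under 0.05 and 71 passed the second rule. Of 96 with a 4-fold change, 73 and 95 did. Among the unchanged genes, 3 had an adjusted p under 0.05 and 739 passed the second rule.

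The members and lists were chosen with earlier results of these data known. Named were the 6 genes, partner and family genes past the second rule, Kitl, Pdgfa and Pdgfc, 5 defining markers, the 2 genes nearest each member and the label checks; any other name is said to be chosen after its values were seen, except Etv4, Hoxb13 and Panx1, which were also chosen with their values known. Irag1 was read under its older symbol Mrvi1, and 1 mast cell marker was not analysed here. The values of 1 other marker gene and its list are not reported here. Coordinates came from GENCODE vM21 and promoters from RefSeq. Alternatives were RLE and upper-quartile factors, library totals alone, DESeq2 1.42.0, limma-voom (limma 3.58.1), no filter on low counts, limma on log2(FPKM + 1) and log2(FPKM + 0.1), the replicate number as a block, the side of the first principal component as a covariate, and each library left out in turn. The labels do not say whether the replicate numbers pair the libraries.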

Additional observations from a re-analysis of the deposited data

How the results depend on the processing

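Among the 6 log2 fold changes, the direction turned for Kit without NSD2fl/fl replicate 3 (-0.039), for Ano1 with the side of the first principal component as a covariate (0.29) and without NSD2fl/fl replicate 1 (0.035), and for Pdgfra with library totals alone (0.043), on log2(FPKM + 1) (0.049), on log2(FPKM + 0.1) (0.057) and without NSD2fl/fl replicate 2 (0.099). With 1 library left out, the log2 fold change ranged from -0.039 to 0.26 for Kit, -1.02 to 0.035 for Ano1, 0.70 to 1.14 for Etv1, -0.18 to 0.099 for Pdgfra, 0.084 to 0.34 for P2ry1 and 0.66 to 1.12 for Kcnn3. Etv1 lost its call without NSD2fl/fl replicate 3, and P2ry1 gained one without NSD2∆IE replicate 1. With 1 library left out, the genes of the 6 that were higher by the second rule numbered 1 to 3 against 2, and the higher partner genes 4 to 9 against 7. Under the other alternatives the former stayed at 2 and the latter numbered 7 to 10. With the side of the first principal component as a covariate, 1 partner gene, Panx1, was lower (log2 fold change -0.38), against 0 otherwise. The causes were not tested.

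The same-numbered libraries deviated together with r of 0.50, 0.64 and -0.17. Replicates 1 of the groups were the closest of all pairs, with a chi-square per degree of freedom of 35.5. The same-numbered libraries 1 and 2 also shared a side of the first principal component, so a pairing cannot be told apart from that split. With the replicate number as a block, the log2 fold changes were 0.89 for both Etv1 and Kcnn3 (unadjusted p 0.0242 and 0.0069), and the count of higher genes stayed at 2. Over all genes, an adjusted p under 0.05 was reached by 5 genes in edgeR and 455 in DESeq2, by which 0 of the 6 genes passed. The median over all genes shifted from -0.041 with TMM factors to 0.086 with library totals alone. The genes lower by the second rule numbered 361, against 108 on log2(FPKM + 1), 138 on log2(FPKM + 0.1), 142 with library totals, 200 with upper-quartile factors, 543 with the covariate, 602 with the block, 607 without a filter and 146 to 747 with 1 library left out. The higher genes numbered 1316, against 675 to 1720 with 1 library left out. The 6 genes had at least 193 counts in every library, and no alternative changed the depth.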
